A study of Homo sapiens with 12 samples.

Results

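The change of the dexamethasone response with time was measured as a difference of differences. For every gene, dexamethasone minus ethanol at 6 h was subtracted from dexamethasone minus ethanol at 24 h, all in log2 units, so a positive change means that the response moved upward between the 2 times. The cells were CCRF-CEM-C7H2, a glucocorticoid-sensitive subclone derived from the CCRF-CEM line of human T-cell acute lymphoblastic leukemia, and all groups share this 1 clone. The 12 arrays of the series, all of which entered the comparison, form 4 groups of 3 independent experiments. Cells received 100 nM dexamethasone or 0.1% ethanol, the carrier, for 6 h, and other cultures received the same for 24 h. The 6 h experiments are numbered 0, 1 and 3 and the 24 h experiments 1, 2 and 3. The study asked which primary microRNA transcripts respond to the glucocorticoid, and its arrays measure the polyadenylated transcripts of the whole genome.

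Dexamethasone is a synthetic glucocorticoid. It binds the glucocorticoid receptor, encoded by NR3C1, which leaves its chaperone complex, enters the nucleus and raises or lowers transcription from sites it binds directly or through other factors. In lymphoid leukemia cells glucocorticoids stop growth and lead to apoptosis, and BCL2L11, which encodes the pro-apoptotic protein BIM, is a known mediator. Genes that the receptor acts on itself usually respond within hours, while targets of the regulators it switches on or off come later.

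Of 54675 probe sets, 23265 were tested, and these gave 9947 genes with 1 probe set each. The deposited values, already normalized to a common distribution, had a median log2 between 3.01 and 3.11 on each array. On each, 41.2% to 42.0% of probe sets reached a log2 of 4, the limit used here for a value above background. Because of the normalization these figures cannot compare amounts of RNA. T-lymphoblast markers were at or above that limit for 11 of 12 genes, DNTT being below it, and none of the 8 myeloid markers on the array reached it (the highest, LYZ, had a mean of 2.98). B-cell markers passed for 2 of 7 genes, CD79A and CD79B. The response of CD79A rose from 0.41 to 1.55 (change 1.14 ± 0.26, limma adjusted p = 0.010) and that of CD79B was -0.18 and 0.25 with no call, and their part in the results was not tested. Erythroid markers passed for 1 of 4, EPOR. Among 10 stromal and epithelial markers COL1A1, VIM, EPCAM and KRT8 passed. The 6 h dexamethasone arrays, the 6 h ethanol arrays and the 24 h arrays carry 3 different codes in their array names, so at 6 h the code and the treatment cannot be told apart, while at 24 h both treatments share a code. The 18S rRNA probe sets moved with that split: their mean response was -2.27 at 6 h and 0.28 at 24 h (exact permutation test, p = 0.1, the smallest that 3 against 3 allows), and their part in the results was not tested.

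Between 6 h and 24 h the response changed for 2692 of 9947 genes (27.1%, limma with a Benjamini-Hochberg adjusted p under 0.05). It rose for 1221 genes (12.3%) and fell for 1471 (14.8%). A fit that pairs each dexamethasone array with the ethanol array of its experiment, called the block fit, had 1790 rising and 2032 falling genes (20.4% falling, 38.4% in all). At 6 h alone 646 genes responded (6.49%), 271 upward (2.72%) and 375 downward (3.77%), and at 24 h alone 5175 did (52.0%), 2378 upward (23.9%) and 2797 downward (28.1%). The typical standard error of a change was 0.16. Changes of at least 1 log2 unit numbered 425 upward and 362 downward, and changes of at least 2 numbered 121 and 24. The upward counts include genes that passed the filter only through the 24 h dexamethasone arrays.

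The movement was seen in the dexamethasone arrays. For both treatments the arrays of the 2 times carry different codes, so in these comparisons time and code cannot be told apart. Between the times 43 genes differed in the ethanol arrays (0.432%) and 5098 in the dexamethasone arrays (51.3%). Of the 2692 genes with a changed response, 2624 differed between the dexamethasone arrays of the 2 times and 14 between the ethanol arrays. The single pair differences of the 2 times did not overlap for 2686 of these 2692 genes, and for 56.1% of all genes tested.

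The deposited values put each array on a common distribution. The poly-A spike controls, bacterial transcripts added to the RNA in fixed amounts, read higher with dexamethasone at both times, by 0.47 ± 0.05 at 6 h and 0.34 ± 0.23 at 24 h (SD, n = 3). The difference of -0.13 was not larger than the spread (exact permutation test, two-sided, p = 0.4). With 3 against 3 that test cannot go below 0.1, so it could not call a shift of any size. Setting the arrays to equal spike level raised every change by 0.13 and gave 992 higher (9.97%) and 555 lower genes (5.58%), 15.6% in all. Lower genes were then 35.9% of those called, against 54.6% on the deposited scale. A further scale set the arrays to equal hybridization controls, bacterial targets added before hybridization. It shifted every change by -0.04 and called 439 genes higher and 437 lower. The dexamethasone response of these controls at 24 h was 0.38 ± 0.43 (SD, n = 3). On both the deposited and the spike scale 904 genes were called higher and 554 lower. On bulk RNA, fewer cells of a kind and less RNA per cell cannot be told apart.

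**Figure D1:**
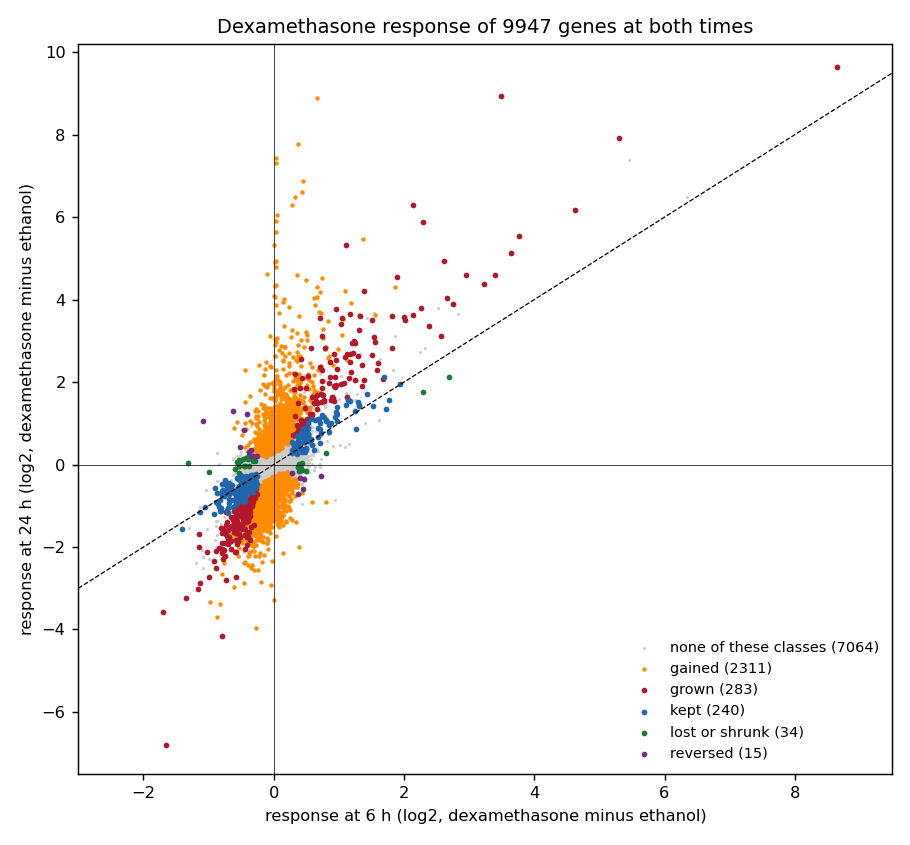
Response at 24 h (vertical axis) against response at 6 h (horizontal axis), each as log2 dexamethasone minus ethanol, 1 point for each of 9947 genes. Points on the dashed line have equal responses at both times; the 2311 gained genes lie along the vertical axis, the 283 grown genes lie beyond the line, and the 240 kept genes lie close to it.

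Each gene was placed in a class from its 3 tests. A response was gained when it was called at 24 h and not at 6 h and the change was called. It had grown when it was called at both times in 1 direction and became larger. Kept means called at both times in 1 direction with a 95% interval of the change inside 1 log2 unit on either side of 0. The response was gained by 2311 genes, 1045 upward and 1266 downward, and had grown for 283, 123 upward and 160 downward. It was kept by 240 genes, 91 upward and 149 downward. It was lost, no longer called at 24 h, by 30 genes, had shrunk for 4 and was reversed for 15. A further 2350 genes were called at 1 time with the change undecided, and 4642 had no call at all.

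On the spike scale the downward classes differ most. There 73 genes gained and 482 had grown a downward response, 3264 kept one, 219 lost one and 209 turned from down to up, since the whole distribution reads lower with dexamethasone at both times on that scale. The upward classes held 488 gained and 69 grown genes.

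Of 271 genes raised at 6 h, 236 were raised at 24 h, 6 were lowered and 29 were not called. The change was called further upward for 123 of them and back for 18, and their median change was 0.42. Among the 87 raised by at least 1 log2 unit at 6 h, 55 went further up, 14 were kept and 2 went back. Of 375 genes lowered at 6 h, 314 were lowered at 24 h, 9 were raised and 52 were not called. The change was called further down for 160 and back for 31. Looking from the other end, 641 genes were raised and 628 lowered by at least 1 log2 unit at 24 h. A median of 19.2% of the log2 response of the raised genes was present at 6 h, and 21.9% for the lowered ones. Only 30 of the raised genes and 6 of the lowered ones had 75% or more of it at 6 h. All these figures are on the deposited scale. On the spike scale every response is lower, by 0.47 at 6 h and by 0.34 at 24 h. No share present at 6 h was taken on that scale.

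The receptor's own transcript kept its response. NR3C1 read 12.19, 12.12 and 12.11 on the 6 h ethanol arrays and 14.17, 13.92 and 14.16 with dexamethasone, then 12.04, 12.03 and 12.19 with ethanol at 24 h and 14.07, 13.97 and 14.08 with dexamethasone. The groups with and without the drug did not overlap at either time, and the dexamethasone arrays of the 2 times did. Its response was 1.94 at 6 h and 1.95 at 24 h, a change of 0.01 ± 0.12 (SE, n = 3 in each group; 95% interval -0.25 to 0.28). Of the response at 24 h, 99.3% was present at 6 h.

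Targets of the receptor in other tissues and cells, 25 of which were tested, had the highest median change of the lists with 10 or more tested genes. The lists and their members were chosen with earlier results of these data known, so this rank is a description. The response rose for 16 (64.0%) and fell for none, against 12.3% and 14.8% of all genes, and the median response went from 1.11 to 2.48. The 16 include RASD1, which passed the filter only through the 24 h dexamethasone arrays. For 11 the response had grown, for 4 it was gained, for 2 it was kept and for 1, TNFAIP3, it was lost. TSC22D3, which encodes the anti-inflammatory protein GILZ, was below a log2 of 4 on every ethanol array and between 11.39 and 11.65 on the 6 h dexamethasone arrays. The 24 h arrays read 12.85, 12.42 and 12.85 with dexamethasone, and 89.7% of its 24 h response was present at 6 h (change 0.99 ± 0.21, adjusted p = 0.0067). The hybridization-control scale ended this call. FKBP5, a co-chaperone that lowers the receptor's affinity for its ligand, read 13.67, 13.82 and 13.95 with dexamethasone at 6 h and 14.53, 14.40 and 14.47 at 24 h. Its response went from 2.57 to 3.13 (change 0.56 ± 0.17, adjusted p = 0.033), and that call was lost when any of 8 of the 12 arrays was left out (adjusted p up to 0.0797). They were the 6 h dexamethasone arrays of experiments 0 and 1, the 6 h ethanol arrays of experiments 1 and 3, the 24 h ethanol arrays of experiments 1 and 2 and the 24 h dexamethasone arrays of experiments 1 and 3.

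Other receptor targets differed in how much of the response was present at 6 h. BCL6, a transcriptional repressor, read 4.90, 5.60 and 5.10 with ethanol and 5.84, 6.71 and 6.37 with dexamethasone at 6 h. At 24 h the ethanol arrays read 5.30, 5.12 and 5.19 and the dexamethasone arrays 10.58, 10.34 and 10.64. The dexamethasone groups of the 2 times lie far apart, while the ethanol groups overlap. Its change was 4.21 ± 0.31 (adjusted p = 1.2e-05), it was called for 3 of 3 probe sets, and 20.8% of the 24 h response was present at 6 h. PFKFB2, which makes an activator of glycolysis, went from a response of 5.31 to 7.92, 67.0% of it present at 6 h (change 2.61 ± 0.36, adjusted p = 0.00061). ISG20, an RNA exonuclease, went from 2.61 to 4.94, 52.9% of it present at 6 h. TXNIP, an inhibitor of thioredoxin and of glucose uptake, went from 0.87 to 2.48 (change 1.61 ± 0.21). RASD1, a small GTPase, was below a log2 of 4 in the other 3 groups and read 4.53, 5.27 and 5.84 with dexamethasone at 24 h. It passed the filter only through these arrays, so its rise is given as a description.

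Among 18 tested genes for the receptor, its chaperones and its coregulators, 3 rose and 6 fell (against 12.3% and 14.8% of all genes). On the spike scale, where 9.97% of all genes rose and 5.58% fell, 1 rose and 1 fell. On the deposited scale 3 fell without the 6 h dexamethasone or the 24 h ethanol array of experiment 3. FKBP4, an immunophilin of the receptor complex, had a response of -0.52 at 6 h and -1.77 at 24 h (change -1.25 ± 0.17, adjusted p = 0.00055). HSP90AB1, an HSP90 chaperone, went from -0.17 to -0.88 (adjusted p = 0.0052) and CREBBP, a histone acetyltransferase that serves as a coactivator, from -0.03 to 0.39 (adjusted p = 0.0075). The calls of HSP90AB1 and CREBBP were lost on the spike and hybridization-control scales.

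The genes with the strongest rise came from background. FMO5, a flavin-containing monooxygenase, read 2.62, 2.69 and 2.74 with ethanol and 3.42, 3.67 and 2.95 with dexamethasone at 6 h. By 24 h the values were 2.71, 2.61 and 2.76 with ethanol and 11.76, 11.22 and 11.75 with dexamethasone, so only the 24 h dexamethasone arrays were above a log2 of 4. The change was 8.22 ± 0.26 (SE), and with values under 4 raised to 4 it was 7.58. Genes of this kind passed the filter of 3 arrays only through the group where they are high, so their changes are given as a description, with no test. The same pattern, background in the other 3 groups, held for TTN, the giant muscle protein titin (7.40 ± 0.29, 6.00 with the floor), ADGRV1, an adhesion G-protein coupled receptor (7.40 ± 0.17, 5.81 with the floor), and CDO1, which oxidises cysteine (7.27 ± 0.33, 6.06 with the floor). TP53INP1, a p53-induced protein with a part in autophagy, behaved likewise, reading 9.24, 8.66 and 9.48 with dexamethasone at 24 h and no more than 3.27 in any other array (change 6.16 ± 0.28, 5.12 with the floor). GREB1, known as an estrogen-induced gene, was above 4 on 1 of the 6 h dexamethasone arrays and rose by 6.17 ± 0.34. NTN4, a secreted netrin, ITIH3, a heavy chain of a serum protease inhibitor, SCRG1, INAVA, B3GAT1, OR7E47P, LINC01120 and LOC101927432 also stood among the 15 strongest rises.

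**Figure D2:**
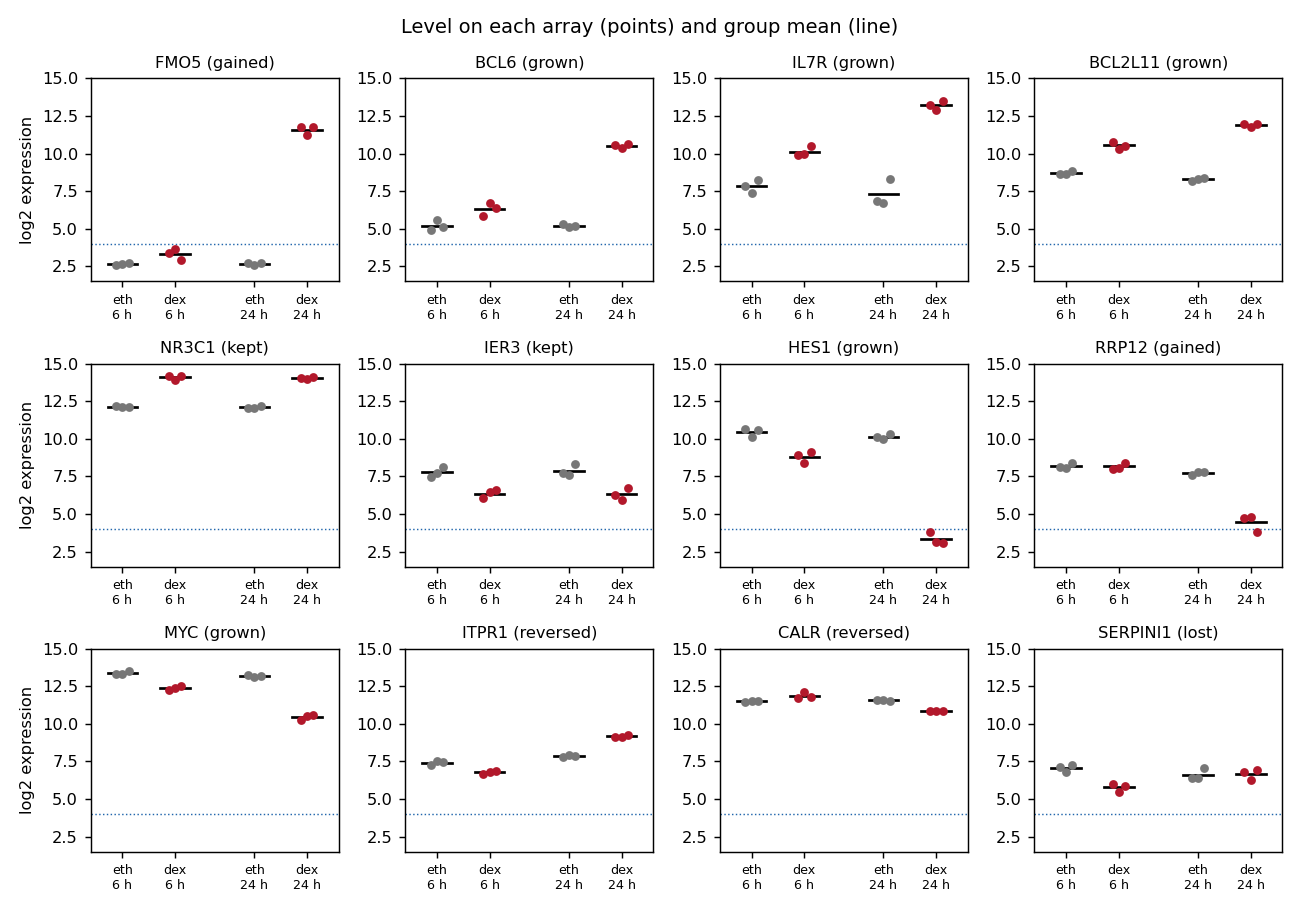
Level (log2, vertical axis) of 12 genes on each of the 12 arrays, ethanol in grey and dexamethasone in red, with lines for the group means and a dotted line at a log2 of 4. FMO5 leaves background only with dexamethasone at 24 h, NR3C1 has equal responses at both times, and ITPR1 and CALR respond in opposite directions at the 2 times.

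A second set of strong rises was already under way at 6 h. ADM, the vasodilator peptide adrenomedullin, was below 4 on all 6 ethanol arrays, read 7.33, 6.04 and 6.08 with dexamethasone at 6 h, and 11.76, 11.65 and 12.41 at 24 h. Its change was 5.46 ± 0.43 (adjusted p = 1.8e-05) and 39.0% of its 24 h response was present at 6 h. HEMGN, a nuclear protein of blood progenitors, went from 2.14 to 6.29, INPP1, an inositol polyphosphate phosphatase, from 0.71 to 3.56, and TRANK1 from 1.39 to 4.22.

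Among genes of apoptosis, BCL2L11 read 8.64, 8.66 and 8.86 with ethanol and 10.78, 10.33 and 10.52 with dexamethasone at 6 h. Its 24 h values were 8.21, 8.34 and 8.38 with ethanol and 11.99, 11.76 and 12.001 with dexamethasone. No dexamethasone array overlapped an ethanol array, and the response went from 1.82 to 3.61 (change 1.79 ± 0.17, adjusted p = 6.7e-05; 6 of 6 probe sets), 50.4% of it being present at 6 h. In the BCL2 family as a whole 3 of 14 genes rose and 1 fell, 28.6% in all and near the 27.1% of all genes, and the block fit had 4 and 3. Besides BCL2L11 the rising ones were BNIP3L, a mitophagy receptor, whose response went from 0.20 to 1.54 (adjusted p = 0.00089), and BID, a substrate of caspase-8, which went from 0.16 to 0.54 (adjusted p = 0.017). The rise of BID was not called on either control scale.

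Caspases and their partners responded at 24 h and in no case at 6 h. The response rose for 7 of 18 tested genes and fell for 1 (44.4% changed, against 27.1% of all genes), and all 8 were gained. CASP8, the initiator caspase of death receptors, read 9.35, 9.44 and 9.41 with ethanol and 9.41, 9.80 and 9.58 with dexamethasone at 6 h, then 9.62, 9.70 and 9.77 against 11.09, 10.96 and 11.23 at 24 h. Its groups touched at 6 h and lay apart at 24 h (change 1.20 ± 0.15, adjusted p = 0.00031). BIRC2, a caspase-binding inhibitor of apoptosis, rose by 0.82 ± 0.11. CYCS, cytochrome c, fell by 0.68 on the log2 scale (SE 0.10). Of 14 TNF ligands and death receptors 2 rose (14.3%, near the 12.3% of all genes), and 5 did in the block fit. TNFSF8, the ligand of CD30, went from 4.62 to 6.18 (adjusted p = 0.0019) and TNFRSF21, death receptor 6, from 0.21 to 1.32 (adjusted p = 0.018). FAS had responses of -0.22 and 0.37, with an adjusted p of 0.071 for the change, and was called in the block fit. The calls of BIRC2 and CYCS were lost on the hybridization-control scale, and that of CYCS on the spike scale too.

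In the list of cytokine receptors and SOCS family genes 11 of 32 tested genes rose and none fell (34.4% changed), against 12.3% rising and 14.8% falling over all genes. The others had no called change. IL7R, the interleukin-7 receptor chain, read 7.84, 7.39 and 8.23 with ethanol and 9.91, 9.94 and 10.49 with dexamethasone at 6 h. At 24 h it read 6.88, 6.72 and 8.34 with ethanol and 13.25, 12.89 and 13.48 with dexamethasone. The ethanol arrays of experiment 3 were the highest of their group at both times, and the dexamethasone arrays stood above them all (change 3.59 ± 0.55, adjusted p = 0.0011). JAK1, a tyrosine kinase of the interleukin-7 and interferon receptors, gained a response of 2.09 after 0.38 at 6 h (change 1.72 ± 0.15, 4 of 4 probe sets). TGFBR2, the signalling receptor for TGF-beta, went from 1.20 to 2.95, and its co-receptor TGFBR3 from -0.06 to 3.12, with values of 6.97, 6.81 and 7.58 against 3.78 to 4.04 on the other arrays. Interferon-stimulated genes and their regulators rose for 9 of 38 and fell for none (23.7% changed, against 27.1% of all genes), and without the 6 h ethanol array of experiment 1 for 5. EPSTI1 went from -0.44 to 2.30 (change 2.74 ± 0.26, adjusted p = 6.6e-05), ISG20 belongs here too, and IFI44 went from 0.74 to 2.02 (adjusted p = 0.0059). In the block fit 14 rose and 2 fell.

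T-cell genes split. In the T-cell receptor complex and its signalling, 9 of 39 genes rose and 4 fell (33.3% changed, against 27.1% of all genes). The block fit had 17 and 6. Leaving out the 6 h dexamethasone array of experiment 3 or the 24 h ethanol array of experiment 1 left 4 rising genes, and leaving out the 6 h ethanol array of experiment 1 or the 24 h dexamethasone array of experiment 3 left 5. CBLB, a ubiquitin ligase that restrains T-cell receptor signalling, gained 1.94 (change 2.03 ± 0.21, adjusted p = 0.00012), and CSK, the kinase that inhibits LCK, reached -1.35 (change -1.11 ± 0.20, adjusted p = 0.0027; not called with experiments 1 and 3 alone). RAG1, which cuts DNA to assemble antigen receptor genes, read 12.32, 12.48 and 12.88 with ethanol and 10.77, 11.16 and 11.72 with dexamethasone at 6 h. At 24 h the values were 12.68, 12.52 and 13.00 with ethanol and 9.18, 9.25 and 10.05 with dexamethasone. All 6 dexamethasone arrays were below all 6 ethanol arrays, and the response went from -1.34 to -3.24 (change -1.90 ± 0.40, adjusted p = 0.0065). Among T-lineage transcription factors, ID2, an inhibitor of E proteins, went from 0.70 to 2.36 and NFIL3, a basic leucine zipper repressor, from 2.66 to 4.05. ITGA4, the alpha-4 integrin of lymphocyte homing, read 9.63, 9.62 and 9.46 with dexamethasone at 24 h against 10.97 to 11.53 on the other 9 arrays (change -1.38 ± 0.11, adjusted p = 1.7e-05).

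With 1 probe set for each gene, HES1, the transcriptional repressor downstream of NOTCH, had the strongest fall of all genes tested. It read 10.65, 10.13 and 10.61 with ethanol and 8.93, 8.38 and 9.10 with dexamethasone at 6 h. The 24 h arrays read 10.11, 9.98 and 10.34 with ethanol and 3.78, 3.10 and 3.10 with dexamethasone. The last 3 values are under a log2 of 4 and all others are above 8. The response went from -1.66 to -6.81 (change -5.15 ± 0.33, adjusted p = 4.5e-06), or by -4.48 with values under 4 raised to 4. Single arrays were also left out, with the probe set of highest mean chosen anew each time. The change of HES1 then lay between -5.38 and -3.61, the latter close to the -3.69 of CCDC78 on all arrays. In the list of the NOTCH pathway and leukemia oncogenes 1 of 20 genes rose and 4 fell, 25% in all and near the 27.1% of all genes. On the spike scale 1 rose and 2 fell, against 9.97% and 5.58% of all genes. LMO2, a T-cell oncogene when misexpressed, went from -0.17 to -1.39 (adjusted p = 0.0044). NOTCH1 went from -0.74 to -1.67 (adjusted p = 0.012), which neither control scale called. ADAM10, the protease that cleaves NOTCH receptors, went from -0.05 to 0.72 (adjusted p = 0.0027), which the hybridization-control scale did not call.

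Autophagy and lysosome genes gained upward responses. For autophagy 17 of 40 genes rose and none fell (42.5% changed), against 12.3% rising and 14.8% falling over all genes. Of these 17, 16 were gained and 1 had grown. The median response of the list was 0.17 at 6 h and 0.42 at 24 h. GABARAPL1, an ATG8 family protein of the autophagosome membrane, read 4.74, 4.88 and 4.52 with ethanol and 5.01, 5.97 and 5.27 with dexamethasone at 6 h. By 24 h the values were 4.50, 4.86 and 4.85 with ethanol and 8.80, 8.72 and 9.21 with dexamethasone (change 3.47 ± 0.32, adjusted p = 5.5e-05). ATG12, a ubiquitin-like conjugate of autophagosome formation, went from 0.23 to 2.47 (change 2.23 ± 0.17, 3 of 3 probe sets). Lysosomal genes rose for 15 of 45 and fell for 2 (37.8% changed, against 27.1% of all genes). NPC2, a cholesterol carrier of the lysosome, went from 0.00 to 1.18 (adjusted p = 0.00014) and ATP6V1H, a subunit of its proton pump, from 0.09 to 1.12 (adjusted p = 0.00044).

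Of 39 genes for PI3-kinase, AKT, SGK and mTOR, 8 rose and 6 fell (35.9% changed, against 27.1% of all genes). On the spike scale 6 rose and 2 fell, against 9.97% and 5.58% of all genes. PIK3R1, the regulatory subunit of PI3-kinase, read 9.61, 9.68 and 9.86 with ethanol and 10.21, 10.25 and 10.41 with dexamethasone at 6 h, and 9.63, 9.82 and 9.89 against 12.61, 12.57 and 12.68 at 24 h. The dexamethasone group stood higher at 6 h and much higher at 24 h (change 2.27 ± 0.14, adjusted p = 2.7e-06). SESN1, a sestrin that restrains mTOR complex 1, went from 1.17 to 3.66 (change 2.49 ± 0.21), and MLST8, a shared mTOR subunit, from 0.15 to -0.92 (change -1.07 ± 0.16). FBXO32, the muscle atrophy ubiquitin ligase atrogin-1, was at background except with dexamethasone at 24 h, where it read 7.63, 5.77 and 7.18, so that it too passed the filter only there (change 4.06 ± 0.49, 2.86 with values under 4 raised to 4, given as a description). FOXO3, a forkhead factor that AKT holds out of the nucleus, went from 0.03 to 1.00 (adjusted p = 0.00031, not called on the hybridization-control scale). DUSP10, a phosphatase of p38 and JNK, went from 1.03 to 3.40 (change 2.37 ± 0.27, adjusted p = 0.00019). CYLD, a deubiquitinase that restrains NF-kB, went from 0.09 to 1.82 (adjusted p = 0.00022).

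MYC, the transcription factor that drives growth, fell early and kept falling. It read 13.33, 13.31 and 13.51 with ethanol and 12.25, 12.42 and 12.50 with dexamethasone at 6 h. Its 24 h values were 13.22, 13.11 and 13.21 with ethanol and 10.26, 10.54 and 10.58 with dexamethasone. The 4 groups form 3 levels, the ethanol arrays of both times at the top and the 24 h dexamethasone arrays at the bottom. The response went from -0.99 to -2.72 (change -1.73 ± 0.15, adjusted p = 3.2e-05), 36.4% of it being present at 6 h. In its network of 10 genes 1 rose and 1 fell (20% changed, against 27.1% of all genes). The other was MXD1, a repressor that shares the partner MAX with MYC, which went from -0.16 to 0.82 (adjusted p = 0.020). That call was lost without the 24 h ethanol or the 24 h dexamethasone array of experiment 1 (adjusted p up to 0.0514).

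Ribosome biogenesis factors, the proteins that process rRNA and assemble the subunits, held the highest share of falling responses of the lists with 10 or more tested genes. This rank too is a description, since the lists were chosen with earlier results of these data known. Of 85 tested genes 69 fell (81.2%) and none rose, against 14.8% and 12.3% of all genes, and 46 fell on the spike scale, where 5.58% of all genes did. The median response was -0.28 at 6 h and -1.20 at 24 h. At 6 h 27 were already lowered, and at 24 h 81 were. The downward response was gained by 45 and had grown for 24. RRP12, a factor for export of the pre-ribosomal subunits, read 8.10, 8.03 and 8.36 with ethanol and 8.0, 8.08 and 8.41 with dexamethasone at 6 h. At 24 h it read 7.60, 7.80 and 7.82 with ethanol and 4.73, 4.79 and 3.81 with dexamethasone. At 6 h the groups coincide and at 24 h they lie apart (change -3.30 ± 0.32, adjusted p = 7.7e-05). RPF2, which brings the 5S particle into the large subunit, shows the other pattern: 10.74, 10.77 and 10.72 against 10.28, 10.35 and 10.37 at 6 h, then 10.60, 10.65 and 10.64 against 8.52, 8.88 and 8.65 at 24 h. Its drug-treated arrays were below the controls at both times (change -1.54 ± 0.12). NPM3, a nucleolar histone chaperone, went from 0.15 to -2.15, LYAR from -0.79 to -2.15, and GAR1, of the pseudouridylation complex, from -0.31 to -1.46. IPO4, an importin for ribosomal proteins and histones, and PUS7, a pseudouridine synthase, were among the 15 strongest falls with changes of -2.31 ± 0.30 and -2.36 ± 0.33.

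The proteins of the ribosome itself did not share this fall. Of 53 cytosolic ribosomal protein genes 1 rose and 1 fell, and the median response was -0.01 at 6 h and -0.02 at 24 h. RPL36A went from -0.03 to 0.71 (adjusted p = 0.0063) and RPL36 from 0.07 to -0.46 (adjusted p = 0.0044), and the hybridization-control scale called neither. The mitochondrial ribosome differed: 38 of 76 genes fell and none rose (50%, against 27.1% of all genes), with 9 falling on the spike scale. Over all genes 5.58% fell on that scale. MRPL12 went from -0.14 to -1.42 and MRPS34 from -0.08 to -1.03. Mitochondrial import and its chaperones fell for 23 of 31 (74.2%), 11 of them on the spike scale, among them TIMM13, a carrier of the intermembrane space (change -0.99 ± 0.08, adjusted p = 3.1e-05). In the respiratory chain and ATP synthase 12 of 69 fell and 1 rose, 18.8% in all against 27.1% of all genes, and 2 fell on the spike scale. It was 7 that fell without the 6 h dexamethasone array of experiment 1, the 6 h ethanol array of experiment 3 or any single 24 h array other than the dexamethasone array of experiment 2.

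**Figure D3:**
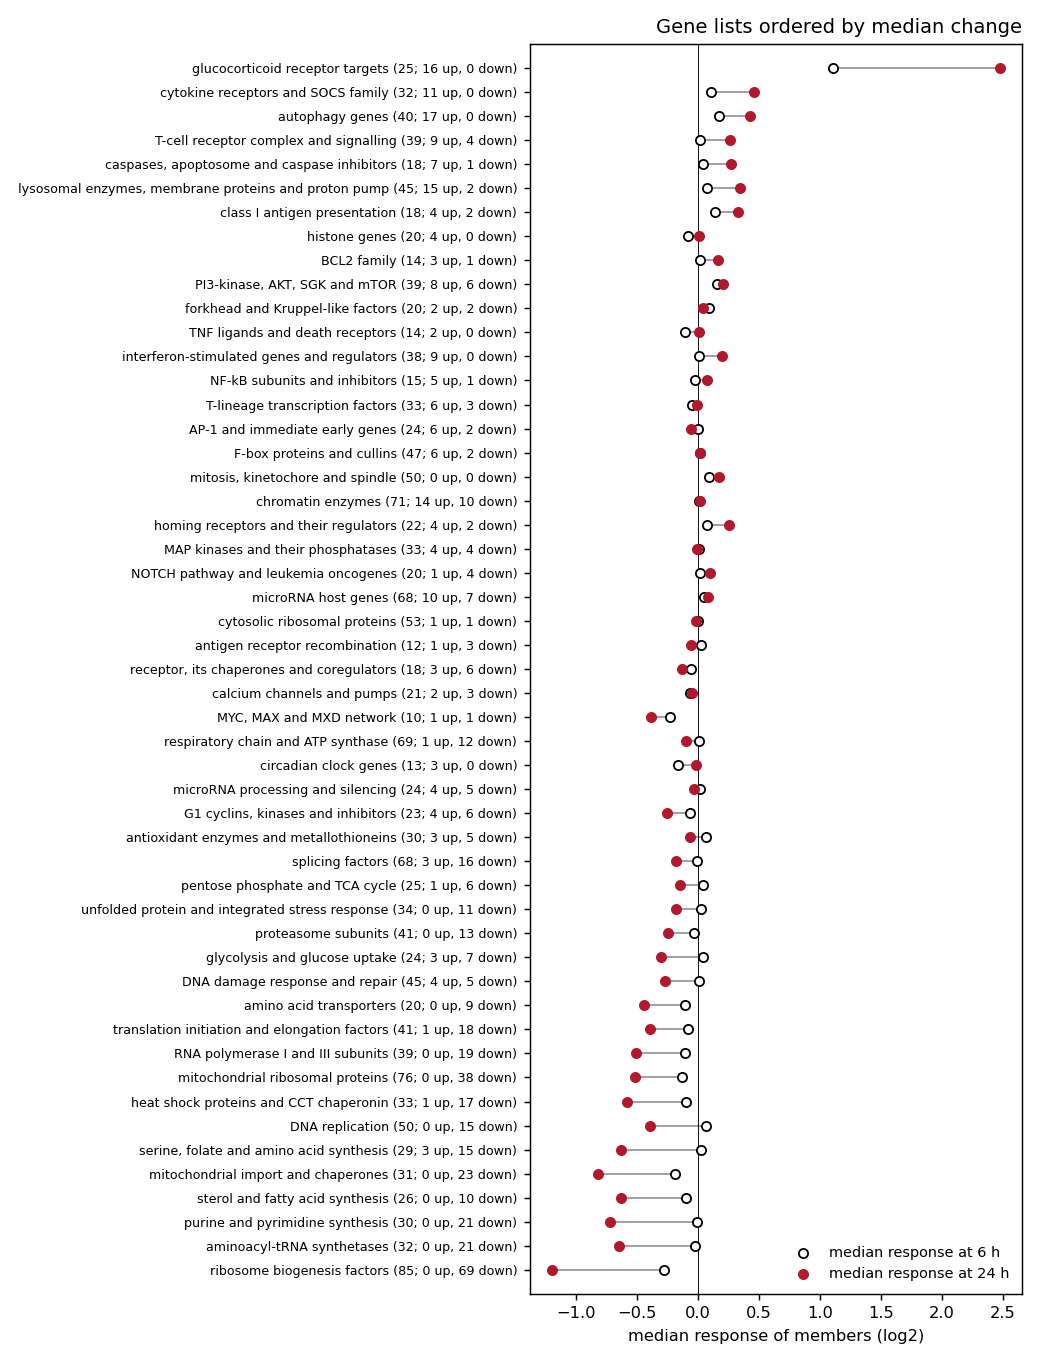
Median response (log2, dexamethasone minus ethanol) at 6 h (open) and 24 h (red) for each list with 10 or more tested genes, ordered by median change, with the number tested and the numbers whose change was called up and down. Receptor targets lie at the top, going from 1.11 to 2.48, and ribosome biogenesis factors at the bottom, going from -0.28 to -1.20.

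Other parts of protein synthesis fell with the biogenesis factors on the deposited scale. Subunits of RNA polymerase I and III and their factors fell for 19 of 39 and rose for none (48.7%, against 27.1% of all genes). POLR1B, a polymerase I subunit, went from -0.57 to -1.93 (adjusted p = 0.00019). Translation factors fell for 18 of 41 and rose for 1. EIF4EBP1, a repressor of cap-dependent translation, went from -0.16 to -1.75, and EIF2B3, of the nucleotide exchange factor for eIF2, from -0.45 to -1.57. Aminoacyl-tRNA synthetases, which charge tRNAs, fell for 21 of 32 (65.6%), 20 of them gained. VARS1, the valyl-tRNA synthetase, read 8.96, 9.52 and 9.18 with ethanol and 9.27, 9.79 and 9.75 with dexamethasone at 6 h. The 24 h arrays read 9.30, 9.37 and 9.59 with ethanol and 7.29, 7.80 and 7.20 with dexamethasone, so the groups overlap at 6 h and lie apart at 24 h (change -2.37 ± 0.28, adjusted p = 0.00023). On the spike scale 5.58% of all genes fell. There 8 of 39 polymerase subunits, 3 of 41 translation factors and 11 of 32 synthetases fell, the translation factors near the share of all genes.

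Supply of building blocks fell too. Purine and pyrimidine synthesis fell for 21 of 30 genes (70.0%) and rose for none, against 14.8% and 12.3% of all genes. Its median response was -0.01 at 6 h and -0.73 at 24 h. PFAS, an enzyme of purine synthesis, read 10.69, 10.79 and 10.87 with ethanol and 10.81, 10.83 and 10.80 with dexamethasone at 6 h. By 24 h the values were 10.73, 10.86 and 10.88 against 9.001, 9.37 and 8.94 (change -1.75 ± 0.15, adjusted p = 3.8e-05). In serine, folate, amino acid and polyamine synthesis 15 of 29 fell and 3 rose, or 1 rose without the 24 h dexamethasone array of experiment 3. SRM, the spermidine synthase, read 11.79, 11.70 and 11.65 against 11.60, 11.65 and 11.63 at 6 h, and 11.45, 11.56 and 11.65 against 9.34, 9.85 and 9.31 at 24 h (change -1.97 ± 0.18). ODC1, the rate-limiting enzyme of polyamine synthesis, went from -0.21 to -1.77. Amino acid transporters fell for 9 of 20 and rose for none. SLC38A5, a glutamine transporter, went from -0.04 to -2.93 (change -2.89 ± 0.41, adjusted p = 0.00068). Sterol and fatty acid synthesis fell for 10 of 26, and for 16 in the block fit. FASN, the fatty acid synthase, went from -0.16 to -1.58 (adjusted p = 0.00011). On the spike scale 12 nucleotide, 9 serine and folate, 5 transporter and 8 lipid genes fell, and 5.58% of all genes did.

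Glycolysis was divided. Of 24 genes 3 rose and 7 fell (41.7% changed, against 27.1% of all genes), and 12 fell in the block fit. Leaving out any 1 of 8 arrays, all but the 6 h dexamethasone array of experiment 0, the 6 h ethanol arrays of experiments 1 and 3 and the 24 h dexamethasone array of experiment 2, left 4 falling genes. LDHA, the lactate dehydrogenase, went from 0.04 to -0.80 (adjusted p = 0.0010), and SLC2A3, a glucose transporter, from 0.15 to 0.82 (adjusted p = 0.0020), while PFKFB2 rose as given above. The hybridization-control scale called neither LDHA nor SLC2A3. In the pentose phosphate pathway and TCA cycle 6 of 25 fell and 1 rose, a share in all near the 27.1% of all genes. TKT, a transketolase, went from 0.28 to -0.70 and ACO1, the cytosolic aconitase that also binds iron-responsive RNA, from 0.04 to 1.70.

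**Figure D4:**
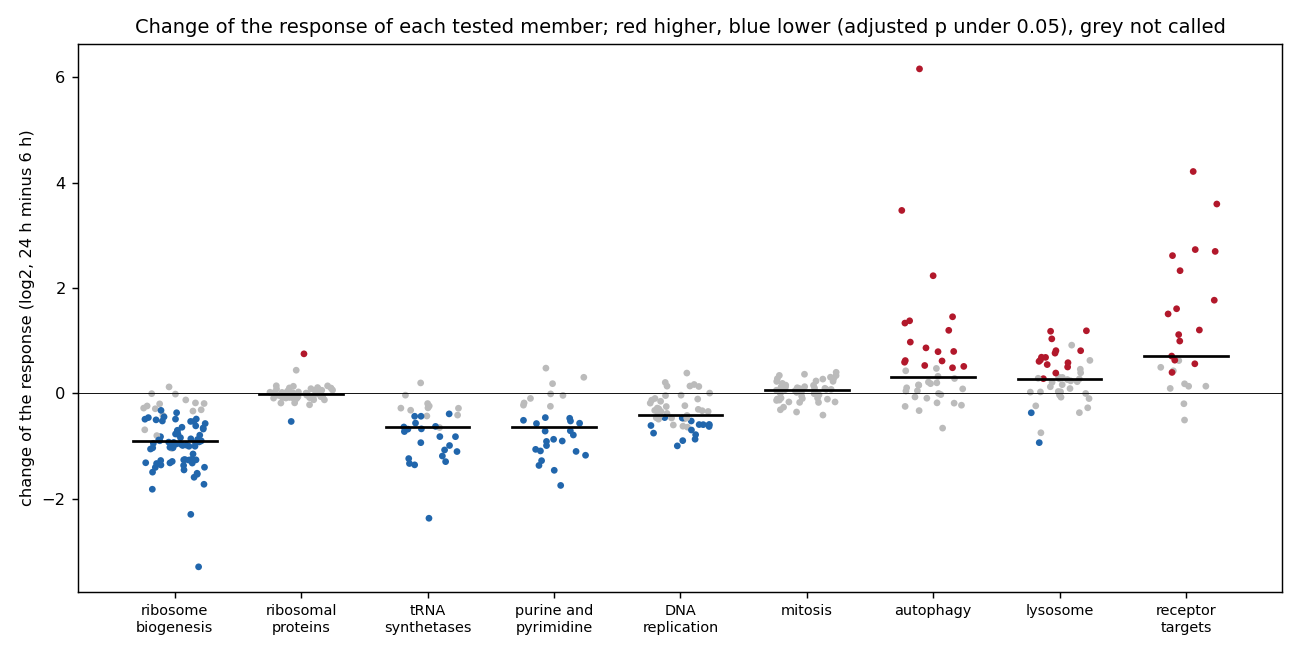
Change of the response (log2, 24 h minus 6 h, vertical axis) of every tested gene of 9 lists, red where called higher, blue where called lower and grey where not called, with a line at the list median. Ribosome biogenesis lies almost wholly below 0 with 69 of 85 called lower, ribosomal proteins and mitosis lie around 0, and autophagy, lysosome and receptor targets reach upward.

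In DNA replication 15 of 50 genes fell (30%) and none rose, against 14.8% and 12.3% of all genes. The median response went from 0.07 to -0.40. In the block fit 29 fell, where 20.4% of all genes did. On the spike scale 3 of the 50 fell, near the 5.58% of all genes. On the deposited scale the count was 25 without the 24 h dexamethasone array of experiment 2. It was 8 without the 24 h dexamethasone array of experiment 1 or the 24 h ethanol array of experiment 2, and 9 without the 24 h dexamethasone array of experiment 3. POLD2, a subunit of DNA polymerase delta, went from 0.17 to -0.83 (adjusted p = 0.0019), and MCM4, of the replicative helicase, from -0.05 to -0.75 (adjusted p = 0.0068, 4 of 4 probe sets, called on neither control scale). Among 50 genes for mitosis, kinetochore and spindle no change was called, with median responses of 0.09 and 0.17. The block fit called 4 higher and 3 lower, and the difference between the replication and mitosis lists was not tested. In G1 control, CDK4, the cyclin D kinase, read 12.34, 12.45 and 12.50 with ethanol at 24 h and 11.35, 11.73 and 11.36 with dexamethasone (change -0.81 ± 0.14, adjusted p = 0.0025, not called on the hybridization-control scale). CDC25A, a phosphatase that activates cyclin-dependent kinases, went from -0.29 to -1.33. CDKN2D, the CDK4 inhibitor p19, went from -0.49 to 0.73 (change 1.22 ± 0.19, adjusted p = 0.0011). NBN, a sensor of double-strand breaks, went from 0.43 to 2.09 and XRCC3, of homologous recombination, from 0.12 to -1.35. H1-2, a linker histone, went from -0.14 to 0.91. Counts for G1 control, DNA repair, histones, MAP kinases, NF-kB, T-lineage factors and homing were small and moved by more than 1.5 times when single arrays were left out or experiments were paired, so only genes are named from these lists.

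Chaperone and proteasome genes leaned downward on the deposited scale, where 12.3% of all genes rose and 14.8% fell. On the deposited scale F-box proteins and cullins rose for 6 of 47 and fell for 2 (17% changed, against 27.1% of all genes). The 6 include FBXO32, which passed the filter only through the 24 h dexamethasone arrays. Heat shock proteins and the CCT chaperonin fell for 17 of 33 and rose for 1, and 4 fell on the spike scale. HSPE1, the mitochondrial co-chaperonin, went from -0.34 to -1.37 and CCT5 from -0.23 to -1.22. Proteasome subunits fell for 13 of 41 and rose for none, with a median response of -0.04 at 6 h and -0.25 at 24 h, and 1 fell on the spike scale. Genes of the unfolded protein and integrated stress response fell for 11 of 34, and for 4 on the spike scale. It was 6 that fell without the 6 h ethanol array of experiment 3 and 7 without the 24 h ethanol array of experiment 2. Splicing factors fell for 16 of 68 and rose for 3, 27.9% in all and near the 27.1% of all genes. In the block fit 5 rose, and on the spike scale 2 fell. Chromatin enzymes rose for 14 of 71 and fell for 10 (33.8% changed). Without the 24 h ethanol array of experiment 1 it was 8 that rose, and without the 24 h dexamethasone array of experiment 1 or 3 it was 9. KAT2B, a histone acetyltransferase, went from 0.11 to 1.67, and PRMT5, an arginine methyltransferase, from -0.20 to -1.20 (adjusted p = 0.00010).

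Further genes with strong falls had no list in common. BATF3, an AP-1 family factor, went from -0.87 to -3.69 (change -2.82 ± 0.41), RGS16, an accelerator of G-protein GTPase activity, from -0.83 to -3.38, and TRPV6, a calcium channel, from -0.46 to -2.88. CCDC78 changed by -3.69 ± 0.54, the transcript LINC02036 by -3.37 ± 0.29, and TTLL12, SLC16A9 and FOXP4-AS1 by between -2.65 and -2.32. Among grown downward responses KCTD15 went from -0.74 to -2.80, MATR3, a nuclear matrix protein, from -0.58 to -2.73, and RGMA, a repulsive guidance molecule, from -1.71 to -3.58. JUN, an AP-1 subunit, went the other way, from 1.53 to 3.09 (change 1.56 ± 0.18, adjusted p = 0.00023).

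Ranked by the response at 6 h, the kept upward gene after NR3C1 was WFS1, a membrane protein of the endoplasmic reticulum. It read 9.17, 9.38 and 9.20 against 10.97, 11.16 and 10.92 at 6 h, and 9.55, 9.75 and 9.76 against 11.20, 11.24 and 11.33 at 24 h. The change of -0.20 ± 0.13 has a 95% interval of -0.49 to 0.10. ITGA6, an integrin chain, went from 1.72 to 1.35, USP20, a deubiquitinase, from 1.53 to 1.42 and FAM13A from 1.44 to 1.71. KLF13, a zinc finger factor, went from 1.69 to 2.12. Its adjusted p was 0.062, and 0.0091 in the block fit, where its change was thus called. Kept downward responses were IER3, an early response gene (-1.41 and -1.57), PLEKHG1 (-1.05 and -1.04), FJX1 (-1.13 and -1.14), HAS3, a hyaluronan synthase (-0.91 and -1.21), BAMBI, a decoy receptor for TGF-beta family ligands (-0.82 and -1.13), and LYSMD2 (-0.81 and -1.12). IER3 read 7.46, 7.70 and 8.13 against 6.07, 6.43 and 6.57 at 6 h, and 7.74, 7.57 and 8.32 against 6.25, 5.95 and 6.71 at 24 h, and its interval was wide, -0.95 to 0.62. In the kept class an interval this wide means that a change of up to almost 1 log2 unit was not excluded by the fit.

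Lost responses were few and mostly small. SERPINI1, a neuronal protease inhibitor, read 7.14, 6.82 and 7.30 with ethanol and 6.01, 5.45 and 5.86 with dexamethasone at 6 h. Its 24 h values were 6.38, 6.43 and 7.07 against 6.83, 6.28 and 6.91, so the groups lay apart at 6 h and overlapped at 24 h. The response went from -1.31 to 0.05 (change 1.36 ± 0.33, adjusted p = 0.013). TNFAIP3, the NF-kB inhibitor A20, went from -0.56 to 0.07 (change 0.63 ± 0.16, adjusted p = 0.019, 2 of 2 probe sets). It read 10.08, 10.28 and 10.21 against 9.55, 9.79 and 9.56 at 6 h, and 10.34, 10.38 and 10.41 against 10.38, 10.25 and 10.70 at 24 h. Upward responses were lost by SLCO3A1, an organic anion transporter (0.50 and -0.16), CPOX, an enzyme of heme synthesis (0.39 and -0.15), and 7 other genes. Responses that shrank were those of FNBP1 (0.80 and 0.28), SMIM3 (2.69 and 2.13), ST3GAL6, a sialyltransferase (2.29 and 1.77), and STAM, an endosomal sorting adaptor (-0.53 and -0.21). The calls of ST3GAL6 and STAM were lost when single arrays were left out (adjusted p up to 0.0647 and 0.107; for ST3GAL6 any array but the 6 h dexamethasone array of experiment 1, the 6 h ethanol array of experiment 3, the 24 h ethanol array of experiment 1 and the 24 h dexamethasone array of experiment 2, for STAM any array but the 6 h dexamethasone array of experiment 1 and the 6 h ethanol array of experiment 0). Neither control scale called SLCO3A1, CPOX, FNBP1, SMIM3 or ST3GAL6, and the hybridization-control scale did not call TNFAIP3. With experiments 1 and 3 alone TNFAIP3 and SMIM3 were not called.

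Among the 15 reversed responses, ITPR1, the calcium release channel that opens with inositol trisphosphate, read 7.27, 7.55 and 7.45 with ethanol and 6.69, 6.82 and 6.89 with dexamethasone at 6 h. At 24 h it read 7.82, 7.95 and 7.85 with ethanol and 9.14, 9.16 and 9.25 with dexamethasone. It was lower in every experiment at 6 h and higher in every experiment at 24 h, going from -0.62 to 1.31 (change 1.93 ± 0.13, adjusted p = 5.1e-06, 4 of 4 probe sets). CALR, calreticulin, a calcium-binding chaperone of the endoplasmic reticulum, went from 0.37 to -0.70. It read 11.48, 11.53 and 11.52 against 11.70, 12.13 and 11.82 at 6 h, and 11.59, 11.57 and 11.53 against 10.83, 10.88 and 10.87 at 24 h (change -1.08 ± 0.14, 3 of 3 probe sets), and its 6 h response was close to the threshold (adjusted p = 0.049). RRAS2, a RAS-related GTPase, went from -0.41 to 1.23 (3 of 3 probe sets), TRIM36, a ubiquitin ligase, from -0.46 to 0.83, PTPN22, a phosphatase that restrains T-cell receptor signalling, from -0.52 to 0.42, and USP5, a deubiquitinase, from 0.45 to -0.59. On the spike scale CALR and USP5 were classed as gained and PTPN22 as lost, since their responses at 1 of the times were then no longer called.

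MicroRNA hosts are genes whose transcript contains a microRNA hairpin, so that the host's RNA can serve as the primary microRNA transcript. RefSeq places a hairpin on the same strand within 390 tested genes. Their response rose for 51 and fell for 62 (29.0% in all, near the 27.1% of all genes), with a median change of -0.03, and the block fit gave 68 and 77. The array does not measure the mature microRNAs. Mature sequences of hosts whose change was called are given because they tie each host to its microRNA family; capitals mark the seed, bases 2 to 8, which sets the targets, and positions are of GRCh38.p14 as in RefSeq.
hsa-miR-15b-5p: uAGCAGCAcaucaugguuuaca
hsa-miR-16-5p: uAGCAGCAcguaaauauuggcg
hsa-miR-101-3p: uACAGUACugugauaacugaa
hsa-miR-26a-5p: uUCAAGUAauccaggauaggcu
hsa-miR-378a-3p: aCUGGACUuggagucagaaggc
hsa-miR-25-3p: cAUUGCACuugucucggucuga
hsa-miR-106b-5p: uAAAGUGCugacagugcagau

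SMC4, a condensin subunit, holds MIR15B (chr3:160404607-160404628, plus strand, for the mature 5p arm) and MIR16-2 (chr3:160404754-160404775, plus strand), and the printed pair shares the seed AGCAGCA. SMC4 read 12.78, 12.70 and 12.74 with ethanol and 13.21, 13.07 and 12.91 with dexamethasone at 6 h. The 24 h arrays read 12.91, 12.96 and 12.85 against 14.75, 14.55 and 14.68. The response was 0.32 at 6 h, which missed the threshold (adjusted p = 0.058), and 1.75 at 24 h (change 1.43 ± 0.12, adjusted p = 3.7e-05, 3 of 3 probe sets). DLEU2, the host of MIR15A and MIR16-1, had responses of 0.10 and 0.43, and its change of 0.33 ± 0.19 was not called (adjusted p = 0.25). JAK1, whose values are given above, holds MIR101-1, and RCL1 holds MIR101-2 (chr9:4850345-4850365, plus strand, for the printed arm). RCL1 went from -0.27 to 0.49 (change 0.76 ± 0.14, adjusted p = 0.0037), so the response rose for both hosts of the miR-101 pair. DLEU2, RCL1, CTDSP1, PANK2, PANK3, CPNE4 and CELSR3 were named after their values were seen.

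Further hosts moved with their known microRNAs inside. CTDSP2, a phosphatase of RNA polymerase II, holds MIR26A2 (chr12:57824658-57824679, minus strand) and went from 0.12 to 1.16 (change 1.04 ± 0.16, adjusted p = 0.00097, 1 of 2 probe sets). Its relative CTDSP1, host of MIR26B, had responses of 0.15 and 0.39 with no call for the change (adjusted p = 0.24). PANK3, a pantothenate kinase with MIR103A1, went from -0.20 to 0.50 (adjusted p = 0.0049), while PANK2, with MIR103A2, had 0.19 and 0.18 (adjusted p = 0.95). SPATA13, with MIR2276, went from 0.17 to 1.87 (adjusted p = 0.00066). Downward, PPARGC1B, a coactivator of mitochondrial genes with MIR378A (chr5:149732867-149732888, plus strand), read 6.27, 6.13 and 6.42 with dexamethasone at 6 h and 4.76, 5.29 and 4.52 at 24 h, against 6.84 to 7.12 with ethanol. Its response had grown from -0.77 to -2.08 (change -1.31 ± 0.24, adjusted p = 0.0030). MCM7, of the replicative helicase, holds MIR25 (chr7:100093571-100093592, minus strand) and MIR106B (chr7:100094043-100094063) and went from 0.17 to -0.43 (adjusted p = 0.019, 1 of 2 probe sets, called on neither control scale). The strongest changes among all hosts were CPNE4, with MIR5704, from 0.76 to 3.29, and CELSR3, with MIR4793, from -0.35 to -2.50.

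The proteins that make and use microRNAs were divided on the deposited scale, with 4 of 24 higher and 5 lower (37.5% changed, against 27.1% of all genes). On the spike scale 3 were higher and 1 lower, against 9.97% and 5.58% of all genes. XPO5, which exports precursors from the nucleus, read 9.08, 9.13 and 9.27 with dexamethasone at 6 h and 8.12, 8.20 and 8.21 at 24 h, against 9.37 to 9.70 with ethanol (change -0.89 ± 0.13, adjusted p = 0.00097, 3 of 3 probe sets). TARBP2, a partner of Dicer, went from -0.03 to -0.62 and AGO4, an Argonaute, from 0.24 to 1.26 (adjusted p = 0.0052). The hybridization-control scale called none of XPO5, TARBP2 and AGO4.

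Promoters were searched for the E-box CACGTG, a sequence that MYC with MAX, and TFEB family factors, are known to bind. The letters read the same on both strands. RefSeq's promoter sequences, 250 bases before to 50 after each gene's start, matched 8214 of 9947 tested genes. CACGTG was in 7.43% of all promoters and 11.0% of those of tested genes. It was in 17.1% of promoters of genes that gained a downward response, 16.0% of those whose downward response had grown, 9.98% of gained upward and 6.60% of grown upward genes. For kept responses it was in 12 of 77 upward (15.6%) and 17 of 125 downward promoters (13.6%). For lost responses it was in 3 of 19 downward (15.8%) and 1 of 9 upward ones (11.1%). By list it was in 25 of 70 ribosome biogenesis promoters (35.7%), 10 of 31 lysosomal ones (32.3%) and 2 of 47 cytosolic ribosomal protein ones (4.26%). AGAACA, the single-sided core of the receptor's own element, searched on both strands, was in 14.9% of all promoters, 9.11% of those of tested genes and 8.92% of those that gained an upward response. Genes whose response rose, such as ISG20 and TRANK1, hold CACGTG too. A match describes the letters only. Stretches before the gene start of 4 genes whose response fell are given to show the motif, in capitals, and its neighbours.
CDK4: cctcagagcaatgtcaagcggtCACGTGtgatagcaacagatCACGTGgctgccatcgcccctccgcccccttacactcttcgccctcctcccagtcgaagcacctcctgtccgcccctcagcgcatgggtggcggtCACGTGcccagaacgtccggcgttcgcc
SRM: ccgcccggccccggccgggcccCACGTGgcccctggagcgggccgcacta
SLC38A5: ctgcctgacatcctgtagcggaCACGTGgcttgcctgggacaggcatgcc
IPO4: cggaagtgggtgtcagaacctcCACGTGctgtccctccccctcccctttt

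On GRCh38.p14 these lie at chr12:57752384-57752548 for CDK4, chr1:11060190-11060239 for SRM, chrX:48470439-48470488 for SLC38A5 and chr14:24188818-24188867 for IPO4, all on the minus strand. CDK4 holds 3 copies, the farthest 216 and the nearest 101 bases before its start. SRM has its copy 199 bases before the start, SLC38A5 206 and IPO4 29.

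Genes often used as references were not all steady. Of 12 tested 2 rose and 2 fell (33.3% changed, against 27.1% of all genes). GUSB, a lysosomal enzyme, went from 0.23 to 0.62 (adjusted p = 0.018), HPRT1, of purine salvage, from 0.06 to -0.46 (adjusted p = 0.0075), and neither control scale called either. None of the 4 snoRNA host transcripts or 4 GIMAP GTPases tested had a called change on the deposited scale.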

How the data were processed

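Total RNA of 12 cultures was hybridized to Affymetrix HG-U133 Plus 2 arrays. The authors deposited log2 expression values; the submitters' processing notes name GCRMA and R 2.6, and the normalization was kept. A probe set was tested if 3 or more arrays reached a log2 of 4. The tests used limma 3.58.1 (R 4.3.3) with 1 model of the 4 group means with 8 residual degrees of freedom, contrasts for each response and for their difference, and Benjamini-Hochberg adjustment over 23265 probe sets. Each gene is its probe set of highest mean. Genes named are the strongest changes, the strongest of each class, the members of each list with the smallest p, and known checks. The members and the 60 gene lists were chosen with earlier results of these data known. Arrays of the same experiment number at a time deviated together (r from 0.238 to 0.627 for same-numbered pairs, at most 0.05 for others), so the experiment as a block was an alternative, with other scales, filters and left-out arrays. The number of arrays limits the precision, and GCRMA values near background are compressed. The script was tested on simulated data.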

Additional observations from a re-analysis of the deposited data

Results flagged for a closer look

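The main comparison is itself a difference between times: 1221 genes had a response that rose and 1471 a response that fell, by the limma test of the difference. Responses of opposite direction at the 2 times, with the difference called and every experiment moving one way at 6 h and the other way at 24 h, were seen in 12 of the named genes. Downward at 6 h and upward at 24 h were the probe set annotated to MIR3916 (change 2.15), ITPR1 (1.93), RRAS2 (1.64), TRIM36 (1.29), PTPN22 (0.94) and ZNF708 (0.69). Upward at 6 h and downward at 24 h were CALR (-1.08), USP5 (-1.04), C9orf78 (-1.01), ADAM15 (-0.82), ENKD1 (-0.74) and ATP13A1 (-0.49). These are classes of the deposited scale. On the spike scale no gene was classed as reversed from up to down, and all 209 reversed responses went from down to up. At 6 h the array code and the treatment cannot be told apart. The differences of ADAM15 and ATP13A1 were not called on either control scale, and those of ENKD1, ZNF708 and PTPN22 were not called on the hybridization-control scale. The middle 18S rRNA control was lower with dexamethasone in every experiment at 6 h and higher in every experiment at 24 h, a change of 2.43 that an exact permutation test of 3 against 3 cannot call (p = 0.1).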

How the results depend on the processing

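Pairing the arrays of an experiment within each time (a replicate block) gave 616 grown, 459 kept, 91 lost or shrunk and 53 reversed responses, and a block shared across the times gave 452 grown, 59 lost or shrunk and 30 reversed ones. Against 283, 240, 34 and 15 without the block, these are higher; 1212 of the 1221 rising and 1461 of the 1471 falling genes were called in the block fit too. The spike scale gave 555 falling genes and 561 gained, 551 grown, 3286 kept, 220 lost or shrunk and 209 reversed responses. On the hybridization-control scale 439 genes rose, 437 fell, and 688 gained, 168 grown, 6 lost or shrunk and 8 reversed responses were called. With an adjusted p under 0.01 the numbers were 618, 797, 1287, 100, 6 and 3, with 114 kept. With experiments 1 and 3 alone 652 rose and 941 fell, and 1479 responses were gained, 67 grown, 44 kept, 4 lost or shrunk and 2 reversed. Array weights gave 9 and the mean over probe sets 23 reversed responses.

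Leaving out each array in turn gave 869 to 1181 rising, 1153 to 1526 falling, 1740 to 2255 gained, 155 to 302 grown, 157 to 244 kept, 16 to 49 lost or shrunk and 5 to 24 reversed genes. Grown responses numbered 171 and 187 without the 6 h dexamethasone arrays of experiments 1 and 3, and 165, 177 and 155 without the 6 h ethanol arrays of experiments 0, 1 and 3, the last of which left 157 kept. Lost or shrunk responses numbered 16 without the 6 h dexamethasone array of experiment 3 or the 6 h ethanol array of experiment 1 or 3, 20 and 19 without the 24 h ethanol arrays of experiments 1 and 2, and 22 without the 24 h dexamethasone array of experiment 1 or 3. Reversed ones numbered 24, 9 and 6 without the 6 h dexamethasone arrays of experiments 0, 1 and 3, 7, 5 and 6 without the 6 h ethanol arrays of experiments 0, 1 and 3, 7 and 5 without the 24 h ethanol arrays of experiments 1 and 2, and 8 without the 24 h dexamethasone array of experiment 1. The cause was not tested.

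Of 248 named genes 216 were called, 201 of them with any array left out and 131 under all alternatives, and none of the 216 changed direction. The hybridization-control scale ended 82 calls, the spike scale 42 and experiments 1 and 3 alone 30. These counts include genes such as FMO5 and ADGRV1, which passed the filter only through the 24 h dexamethasone arrays and are given as a description. Signal near background limits changes of genes below a log2 of 4.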
